A study of Mus musculus with 19 samples.

Results

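Corticospinal motor neurons (CSMN) were compared with callosal projection neurons (CPN) at postnatal day 3 (P3), on 3 CSMN arrays and 2 CPN arrays out of the 19 arrays of the series. The arrays were chosen by their labelled cell type and age alone. Both kinds of neuron came from C57BL/6 mice with no transgene or treatment named in the labels, were filled with green fluorescent microspheres carried back from their axonal targets, and were sorted by fluorescence. The other groups used here are the same types at embryonic day 18 (E18), P6 and P14, with 2 arrays of each type at each stage. A further pair of arrays, of corticotectal neurons at P14, enters only the estimate of spread shared by all 19 arrays. Each array is an independent collection per the design text, and the number of mice pooled into it is not given in the sources used here. RNA was amplified linearly in 2 rounds and hybridised to Affymetrix Mouse 430 2.0 arrays. Values are log2 expression, and every difference is CSMN minus CPN, so that 1 unit is a 2-fold change and a positive value means higher in CSMN.

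Corticospinal motor neurons are pyramidal cells of layer V that send their axons out of the cortex to the spinal cord and carry commands for voluntary movement. Callosal projection neurons lie mainly in the upper layers, with some in layer V, and send their axons through the corpus callosum to the other hemisphere. In the first postnatal week both kinds are growing axons toward their targets. Transcription factors such as Fezf2 and Bcl11b direct the subcerebral fate, and other factors, among them Cux2 and Lmo4, are found in upper-layer and callosal neurons.

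The genes that passed the test at P3 mostly had large differences, and their number depended on the arrays and weights in the fit. The smallest absolute difference that passed was 0.73. Of 18193 genes, 159 (0.874%) passed the limma test at a Benjamini-Hochberg adjusted p under 0.05, with 91 higher (0.500%) and 68 lower (0.374%) in CSMN. The differences were at least 2-fold for 155 of the 159 genes and at least 4-fold for 22 higher and 22 lower genes. The median difference over all genes was 0.04, and the median absolute difference was 0.15. All CSMN arrays lay above both CPN arrays for 3813 genes (21.0%) and below both for 2407 genes (13.2%), and no gene that passed the test had overlapping groups. The exact permutation test over the 5 arrays has 10 splits and cannot go below p = 0.1, so the fit across all genes carries every test here. Array number limits the precision, and the files give no detection call, so a fold is printed only where all 5 arrays lay above 6.53, the highest array median among them.

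**Figure D1:**
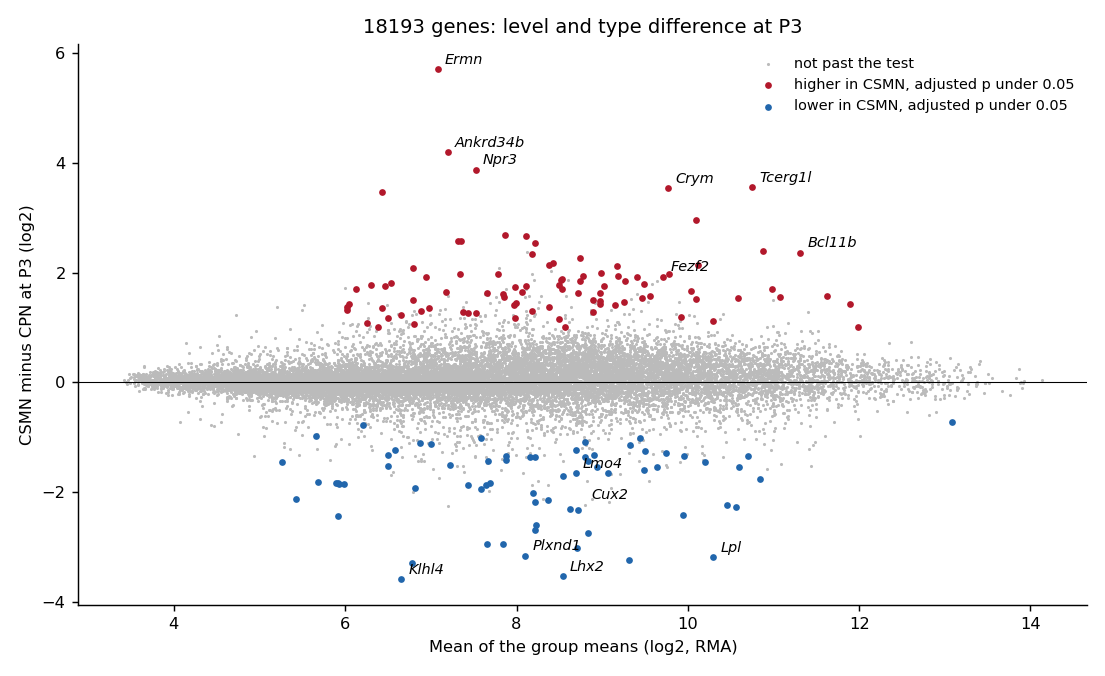
Mean level of each gene at P3 (horizontal axis, log2) against its CSMN minus CPN difference (vertical axis, log2), 1 point per gene. Red points are the 91 genes that passed the test higher in CSMN and blue points the 68 that passed it lower. Ermn stands highest at 5.70, and Klhl4 lowest at -3.59.

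The 5 arrays correlated at 0.985 to 0.991 within CSMN, at 0.995 between the CPN pair and at 0.974 to 0.981 between types. The median SD of a gene was 0.18 over the CSMN arrays and 0.08 over the CPN arrays. The third CSMN array was the one nearest to the CPN mean for 51 of the 91 genes higher in CSMN and 52 of the 68 genes lower, against 7315 of all 18193 genes (40.2%). Among them were Ermn, Bcl11b and Fezf2 in the higher direction and Lpl, Lhx2 and Plxnd1 in the lower. In a fit that used only the 5 arrays at P3, 819 genes passed, and 158 of the 159 genes were among them in the same direction (99.4% of the 159 and 19.3% of the 819). The shared fit of all 19 arrays also holds the CSMN P14 arrays, whose genes had a median SD of 0.46. Without that pair, 341 genes passed, with 202 higher and 139 lower. Without the third CSMN array, 152 passed, with 87 higher and 65 lower.

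The labels were checked against markers of both types. Of 8 corticospinal markers, 6 were higher in CSMN and none was lower, and the list averaged 10.92, 11.00 and 10.78 on the CSMN arrays, against 9.23 and 8.91 on the CPN arrays. Of 8 callosal markers, 5 were lower in CSMN and none was higher, with list averages of 7.58, 7.34 and 8.26 on the CSMN arrays, against 9.75 and 9.94 on the CPN arrays. Both lists hold genes found in earlier screens of sorted neurons of this kind, so their direction is not independent evidence. The same holds for the fuller lists of such screens, of which 8 of 17 corticospinal genes were higher and none lower in CSMN (median 1.28), and 9 of 19 callosal genes were lower and none higher (median -1.66). None of 6 cortical excitatory neuron markers passed, and of 12 corticothalamic and subplate markers Crym was higher and Nr4a2 lower in CSMN. Neuron markers averaged between 12.48 and 12.69 on the CSMN arrays and 12.21 on both CPN arrays. Among these, Nefl passed the test, and the other 7 did not.

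**Figure D2:**
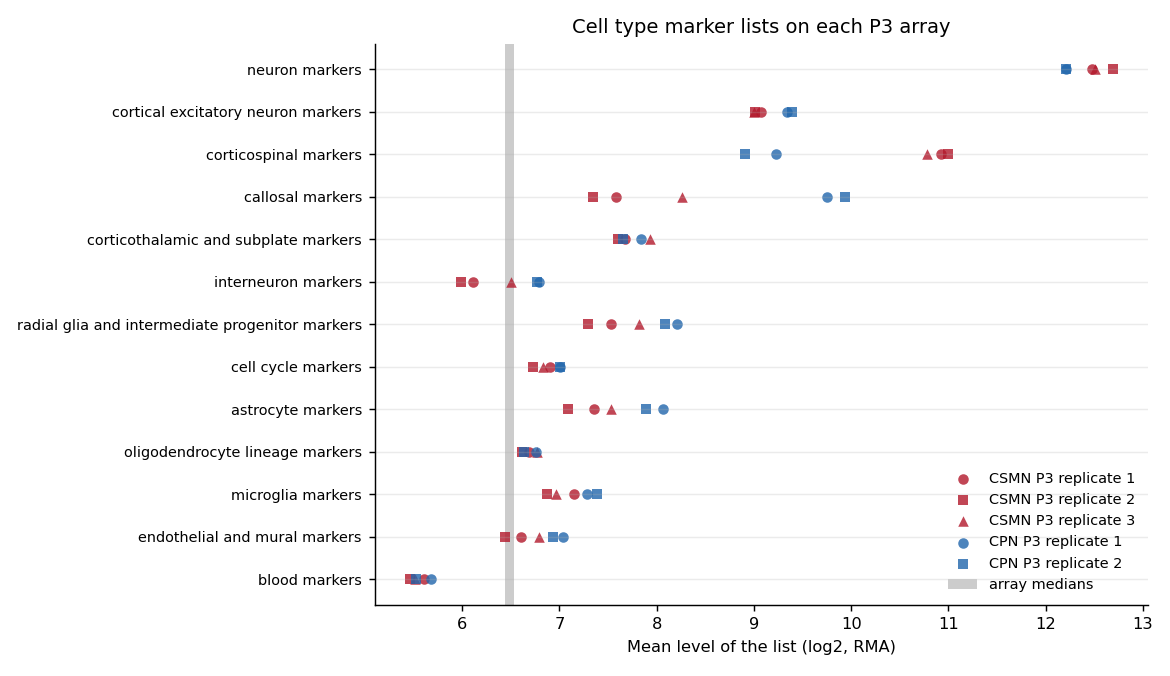
Mean log2 level of each marker list (horizontal axis) on each of the 5 arrays at P3, with CSMN arrays in red and CPN arrays in blue. The band marks the range of the array medians. The corticospinal and callosal lists separate the types in opposite directions, and the blood list lies below every array median.

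Markers of other cells passed the test singly, where 0.874% of all genes did. Of 18 astrocyte markers, Slc1a3, a glial glutamate transporter, was the only one past the test, at -1.55. All CSMN arrays lay below both CPN arrays for 12 of the 18, against 13.2% of all genes. The list averaged 7.36, 7.09 and 7.53 on the CSMN arrays, against 8.07 and 7.89 on the CPN arrays. Gja1, the main astrocyte gap junction protein, differed by -2.12 (adjusted p = 0.229), while Gfap differed by 0.17 and Aqp4 by 0.01 (adjusted p = 1 for both). Of 15 radial glia and progenitor markers, Slc1a3 again was the only one past the test, and the list averaged 7.29 to 7.82 in CSMN and 8.09 to 8.21 in CPN. All CSMN arrays lay below both CPN arrays for 7 of these 15 (13.2% of all genes) and above for 2 (21.0%). Of 15 interneuron markers, only Npy passed. All CSMN arrays lay below both CPN arrays for 8 of the 15, beside the same 13.2% of all genes, and the median was -0.37. The list averaged 6.11, 5.99 and 6.50 on the CSMN arrays, against 6.79 and 6.77 on the CPN arrays. Gad1 and Gad2, which make GABA, differed by 0.00 and 0.06 (adjusted p = 1 for both), and 0.06 was the highest value in the list. No cell cycle (18), microglia (15), endothelial and mural (17) or blood (4) marker passed. In that order, all CSMN arrays lay below both CPN arrays for 4, 5, 6 and 1 of them, against 13.2% of all genes. They lay above both for 1, 1, 0 and 0, against 21.0%. The part that glial, vascular or interneuron RNA has in the genes lower in CSMN was not tested. In sorted pools fewer cells of a type and less RNA per cell cannot be told apart.

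Among 38 measured regulators of projection neuron identity, 5 were higher in CSMN, 4 were lower and 29 did not pass, with a median difference of -0.04. For this and every list below, the shares of all genes to set beside the counts are 0.500% higher and 0.374% lower. Bcl11b (also called Ctip2), the zinc finger factor that controls corticospinal axon growth, read 12.62, 12.60 and 12.23 in CSMN, against 10.46 and 9.80 in CPN. It was 5.13-fold higher in CSMN, with a difference of 2.36 ± 0.38 (SE, limma adjusted p = 0.00641), and all 4 of its probe sets passed the test in the same direction. Fezf2, which acts upstream of Bcl11b, read 10.95, 10.75 and 10.31 in CSMN, against 8.72 and 8.78 in CPN. Its groups stood well apart, at 1.92 ± 0.25 (adjusted p = 0.00175), a 3.78-fold difference. Crym, a thyroid hormone binding protein and a long-used marker of corticospinal neurons, read 11.56, 11.62 and 11.45 in CSMN, against 8.38 and 7.62 in CPN. The CSMN arrays lay within 0.2 of each other, and Crym was 11.6-fold higher in them (3.54 ± 0.43, adjusted p = 0.00122). Ldb2, a cofactor that bridges LIM domain proteins, read 12.64, 12.68 and 12.17 in CSMN, against 11.58 and 11.38 in CPN. Its difference was the smaller one, 1.01 ± 0.21 (adjusted p = 0.0396), and it did not pass with the mean of its 3 probe sets (1.41, adjusted p = 0.147). Ldb2 kept its direction but did not pass without either CPN array or without CSMN array 1 or 2 (0.91 to 1.11, adjusted p = 0.171 to 0.518).

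The regulators lower in CSMN were led by Lhx2, a LIM homeodomain factor of cortical progenitors and upper-layer neurons. It read 6.65, 6.06 and 7.61 in CSMN, against 10.40 and 10.21 in CPN, a difference of -3.53 ± 0.54 (adjusted p = 0.00461). Nr2f1 (COUP-TF1), which sets cortical area identity and restrains subcerebral fate, read 8.74, 8.38 and 9.09 in CSMN, against 11.22 and 11.07 in CPN. It was 5.33-fold lower in CSMN (-2.41 ± 0.37, adjusted p = 0.00446). Lmo4, a LIM-only protein that competes with other partners for Ldb cofactors, read 7.63, 7.74 and 8.21 in CSMN, against 9.52 and 9.51 in CPN. Its difference of -1.66 ± 0.30 also passed (adjusted p = 0.0149), and every CSMN array was below both CPN arrays, as for every gene that passed lower. Cux2, a homeodomain factor of upper-layer neurons, read 6.97, 6.85 and 9.23 in CSMN, against 9.97 and 9.85 in CPN. The third CSMN array was nearer to the CPN arrays than to the other CSMN arrays, and the difference of -2.23 ± 0.63 did not pass (adjusted p = 0.155). Without that array it was -3.00 (adjusted p = 0.0099). Tle4, a corepressor of deep-layer neurons that project to the thalamus, differed by 0.33 (adjusted p = 1).

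**Figure D3:**
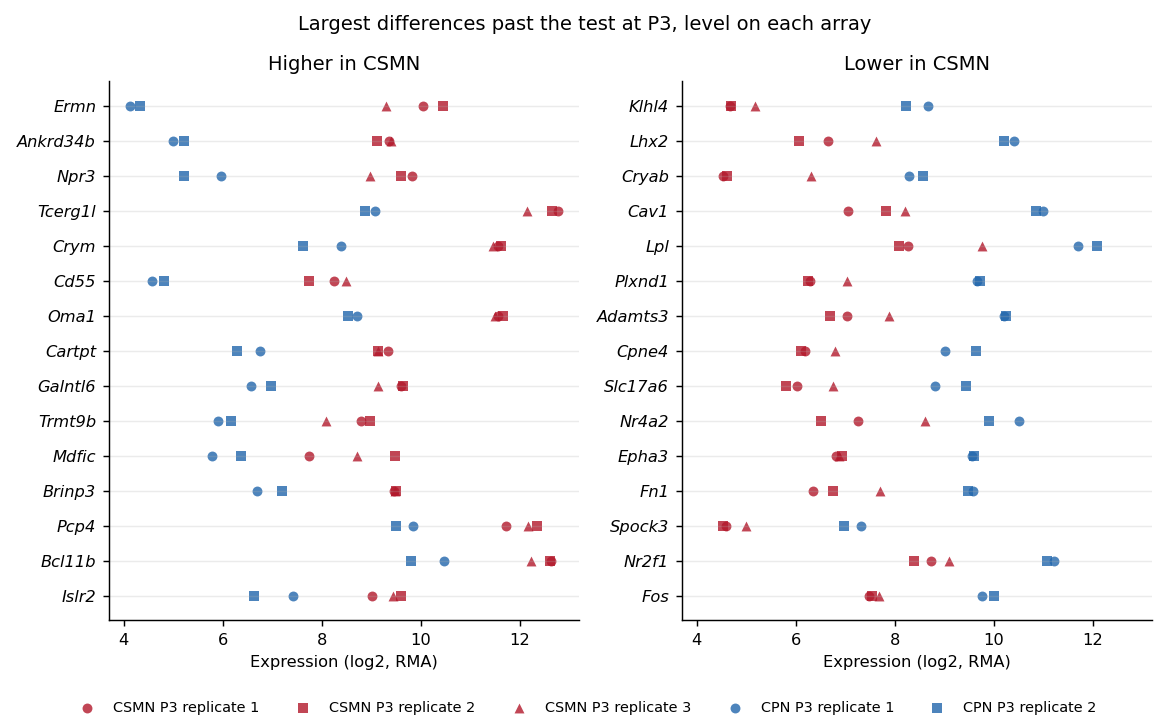
Level of the 15 largest differences per direction on each array (horizontal axis, log2), with CSMN arrays in red, CPN arrays in blue and the marker shape giving the replicate. No gene has overlapping groups, which holds for every gene that passed the test. The third CSMN array (triangle) is the CSMN array nearest to CPN for 8 of the 15 higher genes and for 14 of the 15 lower genes, all but Epha3.

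Ermn had the largest difference of all. It encodes ermin, an actin-binding protein known from myelinating oligodendrocytes, and read 10.04, 10.45 and 9.30 in CSMN, against 4.13 and 4.33 in CPN. The difference was 5.70 ± 0.45 (adjusted p = 2.13e-05), and both probe sets passed the test. The CPN values lay below their array medians, so no fold is given. Of 17 oligodendrocyte lineage markers measured, Ermn alone passed. The myelin genes Mbp, Mag and Mog differed by 0.06, 0.07 and 0.10 (adjusted p = 1 for all 3), and Olig1, a factor of oligodendrocyte precursors, by -2.73 (adjusted p = 0.0631). The list averaged 6.69, 6.61 and 6.77 on the CSMN arrays, against 6.76 and 6.64 on the CPN arrays.

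Several other genes with large differences were at or below array medians in CPN. Ankrd34b, an ankyrin repeat protein, read 9.36, 9.12 and 9.39 in CSMN, against 4.99 and 5.21 in CPN (4.19 ± 0.36, adjusted p = 3.98e-05). Npr3, the receptor that clears natriuretic peptides, read 9.81, 9.59 and 8.98 in CSMN, against 5.96 and 5.22 in CPN (3.87 ± 0.38, adjusted p = 0.000146). Cd55, which protects cells from complement, read 8.25, 7.75 and 8.48 in CSMN, against 4.56 and 4.82 in CPN (3.47 ± 0.51, adjusted p = 0.00345). In each of these the gap between the groups was several times the spread within them. Tcerg1l, a relative of a transcription elongation regulator, combined a high level with a large difference: 12.77, 12.65 and 12.15 in CSMN, against 9.07 and 8.88 in CPN. It was 11.7-fold higher in CSMN (3.55 ± 0.23) and had the smallest adjusted p of the 30 largest differences, 3.76e-06. Oma1, a protease of the inner mitochondrial membrane, read 11.56, 11.66 and 11.49 in CSMN, against 8.70 and 8.52 in CPN. It was 7.80-fold higher in CSMN (2.96 ± 0.23, adjusted p = 2.13e-05). Pcp4, a regulator of calmodulin, read 11.71, 12.35 and 12.17 in CSMN, against 9.85 and 9.50 in CPN (2.40 ± 0.29, adjusted p = 0.00122).

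The remaining genes among the 15 largest higher in CSMN differed by 2.34 to 2.69. Cartpt, the precursor of the CART neuropeptide, read 9.33, 9.14 and 9.14 in CSMN, against 6.75 and 6.29 in CPN (2.69 ± 0.42, adjusted p = 0.00582). Islr2, an axonal membrane protein with leucine-rich and immunoglobulin domains, read 9.02, 9.59 and 9.44 in CSMN, against 7.41 and 6.62 in CPN. It was 5.05-fold higher in CSMN (2.34 ± 0.39, adjusted p = 0.00828). Galntl6, a relative of the enzymes that start O-glycosylation, differed by 2.67, Trmt9b, a relative of tRNA methyltransferases, by 2.58, and Brinp3, a neural protein induced by BMP and retinoic acid, by 2.53. Mdfic read 7.73, 9.48 and 8.71 in CSMN, against 5.79 and 6.36 in CPN. Its CSMN arrays were the most widely spread of these genes, and it passed narrowly (2.57 ± 0.56, adjusted p = 0.0451).

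Among the genes lower in CSMN, Klhl4, of the kelch family, read 4.68, 4.69 and 5.18 in CSMN, against 8.67 and 8.23 in CPN. Its difference of -3.59 ± 0.71 was the largest in this direction (adjusted p = 0.0262). Plxnd1, the plexin that receives semaphorin 3E, read 6.28, 6.24 and 7.03 in CSMN, against 9.65 and 9.71 in CPN (-3.16 ± 0.30, adjusted p = 0.000134). Lpl, lipoprotein lipase, read 8.27, 8.08 and 9.76 in CSMN, against 11.69 and 12.09 in CPN. It was 9.11-fold lower in CSMN (-3.19 ± 0.40, adjusted p = 0.00132), with the third CSMN array the highest of the 3 and still below both CPN arrays. Cav1, the scaffold protein of caveolae, read 7.05, 7.83 and 8.21 in CSMN, against 11.00 and 10.86 in CPN. It was 9.42-fold lower in CSMN (-3.24 ± 0.43, adjusted p = 0.00165). Cryab, a small heat shock protein, read 4.52, 4.61 and 6.30 in CSMN, against 8.29 and 8.57 in CPN (-3.29 ± 0.55, adjusted p = 0.00828). Its 3 probe sets disagreed: only this one passed, and 1 was higher in CSMN. Cpne4, a copine that binds membranes when calcium is high, read 6.19, 6.11 and 6.79 in CSMN, against 9.01 and 9.63 in CPN (-2.95 ± 0.41, adjusted p = 0.00232). Of the 30 largest differences, 17 passed without the first CPN array, 15 without the second, 25, 23 and 28 without CSMN arrays 1, 2 and 3. Adamts3, Ankrd34b, Cav1, Crym, Ermn, Galntl6, Lpl, Npr3, Oma1, Pcp4, Plxnd1, Slc17a6, Spock3 and Tcerg1l, 14 in all, passed under every alternative in which they were tested.

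Promoter sequence is shown for 2 genes higher in CSMN and 2 lower, chosen because each was among the 15 largest differences in its direction. Each runs from 250 bases before to 50 bases after the start in RefSeq, build GRCm38.p6, 5′ to 3′ on the strand of the gene. Ermn lies at chr2:58052815-58053114 (minus strand), Bcl11b at chr12:108003365-108003664 (minus strand), Lhx2 at chr2:38339031-38339330 (plus strand) and Plxnd1 at chr6:115994956-115995255 (minus strand). Capitals mark the motifs found.
Ermn: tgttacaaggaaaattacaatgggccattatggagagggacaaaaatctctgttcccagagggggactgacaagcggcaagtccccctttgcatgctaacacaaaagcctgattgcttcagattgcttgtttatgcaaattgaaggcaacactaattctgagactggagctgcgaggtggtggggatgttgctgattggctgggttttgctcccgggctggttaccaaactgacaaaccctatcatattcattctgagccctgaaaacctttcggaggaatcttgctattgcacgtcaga
Bcl11b: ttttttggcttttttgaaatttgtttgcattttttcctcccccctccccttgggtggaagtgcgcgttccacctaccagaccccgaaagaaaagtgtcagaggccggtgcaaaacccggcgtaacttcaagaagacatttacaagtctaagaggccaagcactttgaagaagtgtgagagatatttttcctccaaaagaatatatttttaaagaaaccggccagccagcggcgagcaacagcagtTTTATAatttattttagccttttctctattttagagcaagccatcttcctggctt
Lhx2: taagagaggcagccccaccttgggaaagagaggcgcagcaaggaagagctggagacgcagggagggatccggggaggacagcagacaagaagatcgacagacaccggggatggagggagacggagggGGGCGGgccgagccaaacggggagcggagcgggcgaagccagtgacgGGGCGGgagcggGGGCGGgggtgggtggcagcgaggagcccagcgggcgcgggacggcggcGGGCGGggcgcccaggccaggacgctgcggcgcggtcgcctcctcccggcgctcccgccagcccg
Plxnd1: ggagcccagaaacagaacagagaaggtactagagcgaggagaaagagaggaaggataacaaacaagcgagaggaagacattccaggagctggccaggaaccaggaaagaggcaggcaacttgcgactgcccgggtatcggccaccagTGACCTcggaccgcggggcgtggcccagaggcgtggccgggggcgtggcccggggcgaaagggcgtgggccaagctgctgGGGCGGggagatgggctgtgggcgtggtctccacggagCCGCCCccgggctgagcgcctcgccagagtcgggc
Motifs were searched on both strands: the TATA box TATAAA, the AP-1 site TGACTCA, the cyclic AMP response element TGACGTCA, the nuclear receptor half-site AGGTCA, the LIM homeodomain core TAATTA and the GC box GGGCGG. No motif contains another. Ermn held none of them, Lhx2 held GC boxes, and Plxnd1 a nuclear receptor half-site and GC boxes. Bcl11b held the letters of a TATA box, but on the other strand and at the annotated start itself.

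Promoters were given for 74 of the 91 genes higher in CSMN, 52 of the 68 genes lower and 14368 genes in all. A TATA box stood in 9.46% of the higher genes, 17.3% of the lower genes and 9.86% of all promoters. GC boxes stood in 59.5% and 59.6%, against 54.1% of all, and the nuclear receptor half-site in 13.5% and 13.5%, against 13.9%. The LIM homeodomain core stood in 1.35% of the higher and 3.85% of the lower genes, against 3.29% of all. AP-1 sites stood in 1.35% of the higher genes and in none of the 52 lower, against 4.36% of all, and the cyclic AMP response element in 1.35% and in none, against 2.69%. These shares describe letters in a short window and show no binding.

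Among 23 genes of the netrin, Slit and repulsive guidance families, 1 was higher in CSMN, 3 were lower and 19 did not pass, with a median of -0.16. Dcc, the netrin receptor of axons that cross the midline, read 7.43, 6.58 and 7.35 in CSMN, against 9.40 and 9.20 in CPN. It was 4.53-fold lower in CSMN (-2.18 ± 0.33, adjusted p = 0.00464). Unc5d, a netrin receptor of the repulsive class known from upper-layer neurons, read 7.18, 6.92 and 7.46 in CSMN, against 9.42 and 8.99 in CPN (-2.02 ± 0.27, adjusted p = 0.00175). Its relative Unc5c read 8.75, 8.75 and 9.10 in CSMN, against 10.25 and 10.56 in CPN (-1.54 ± 0.26, adjusted p = 0.00815). These 3 netrin receptors were lower on every CSMN array than on either CPN array, as was every gene that passed lower. Rgma, a repulsive guidance molecule that binds neogenin, ran the other way: 10.33, 10.60 and 9.76 in CSMN, against 8.01 and 8.23 in CPN (2.11 ± 0.37, adjusted p = 0.0103). Robo1, a Slit receptor, differed by 1.29 (adjusted p = 0.439), and Robo2 by -0.95 (adjusted p = 0.514).

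Of 17 Eph receptors and ephrins, 1 was higher and 1 lower in CSMN (median -0.16). Epha3 read 6.82, 6.93 and 6.87 in CSMN, against 9.56 and 9.59 in CPN, and was 6.50-fold lower in CSMN (-2.70 ± 0.40, adjusted p = 0.00361). Ephb1 read 11.06, 11.12 and 10.43 in CSMN, against 9.29 and 9.12 in CPN, and was 3.17-fold higher in CSMN (1.67 ± 0.25, adjusted p = 0.00422). The 2 receptors, of the A and B classes, thus differed in opposite directions. Epha4, a receptor needed for corticospinal axons to stay on their side of the cord, differed by -1.45 (adjusted p = 0.0533). Of 28 semaphorins, plexins and neuropilins (median -0.21), Plxnd1 was the only one lower and Sema3c, a secreted semaphorin, the only one higher. Sema3c read 10.16, 10.62 and 10.35 in CSMN, against 8.78 and 8.40 in CPN, and was 3.46-fold higher in CSMN (1.79 ± 0.25, adjusted p = 0.00232). Sema3e, the ligand of Plxnd1, differed by 0.98 (adjusted p = 0.581).

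Adhesion genes passed one by one. Of 36 contactins, immunoglobulin adhesion proteins and synapse organisers (median -0.05), Cntn6, an axonal contactin, was higher in CSMN (1.54 ± 0.33, adjusted p = 0.0451), as was Igsf21, a synapse-organising protein (1.55 ± 0.29, adjusted p = 0.0159). Cntn6 read 11.59, 11.37 and 11.12 in CSMN, against 9.82 and 9.82 in CPN. Tenm1, a teneurin, was lower (-1.76 ± 0.39, adjusted p = 0.0492). Of 25 cadherins and protocadherins (median -0.07), only Cdh10 passed, at 8.56, 8.89 and 8.62 in CSMN, against 10.32 and 10.27 in CPN (-1.60 ± 0.25, adjusted p = 0.00464). Among 37 extracellular matrix and proteoglycan genes, 1 was higher and 4 were lower, with a median of -0.18. Adamts3, a protease that processes procollagen and reelin, read 7.03, 6.69 and 7.88 in CSMN, against 10.21 and 10.24 in CPN. It was 8.12-fold lower in CSMN (-3.02 ± 0.39, adjusted p = 0.00133), though 1 of its 2 probe sets was higher in CSMN. Fn1, fibronectin, differed by -2.60 ± 0.40 (adjusted p = 0.00464), Spock3, a testican proteoglycan, by -2.44 ± 0.30 (adjusted p = 0.00122), and Hs3st1, a heparan sulphate sulphotransferase, by -1.34 ± 0.23 (adjusted p = 0.00887). Of the 2 probe sets of Spock3, 1 was higher in CSMN. Vcan, the proteoglycan versican, was the member higher in CSMN, by 1.12 ± 0.19 (adjusted p = 0.00754), with 6 of its 8 probe sets in that direction.

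**Figure D4:**
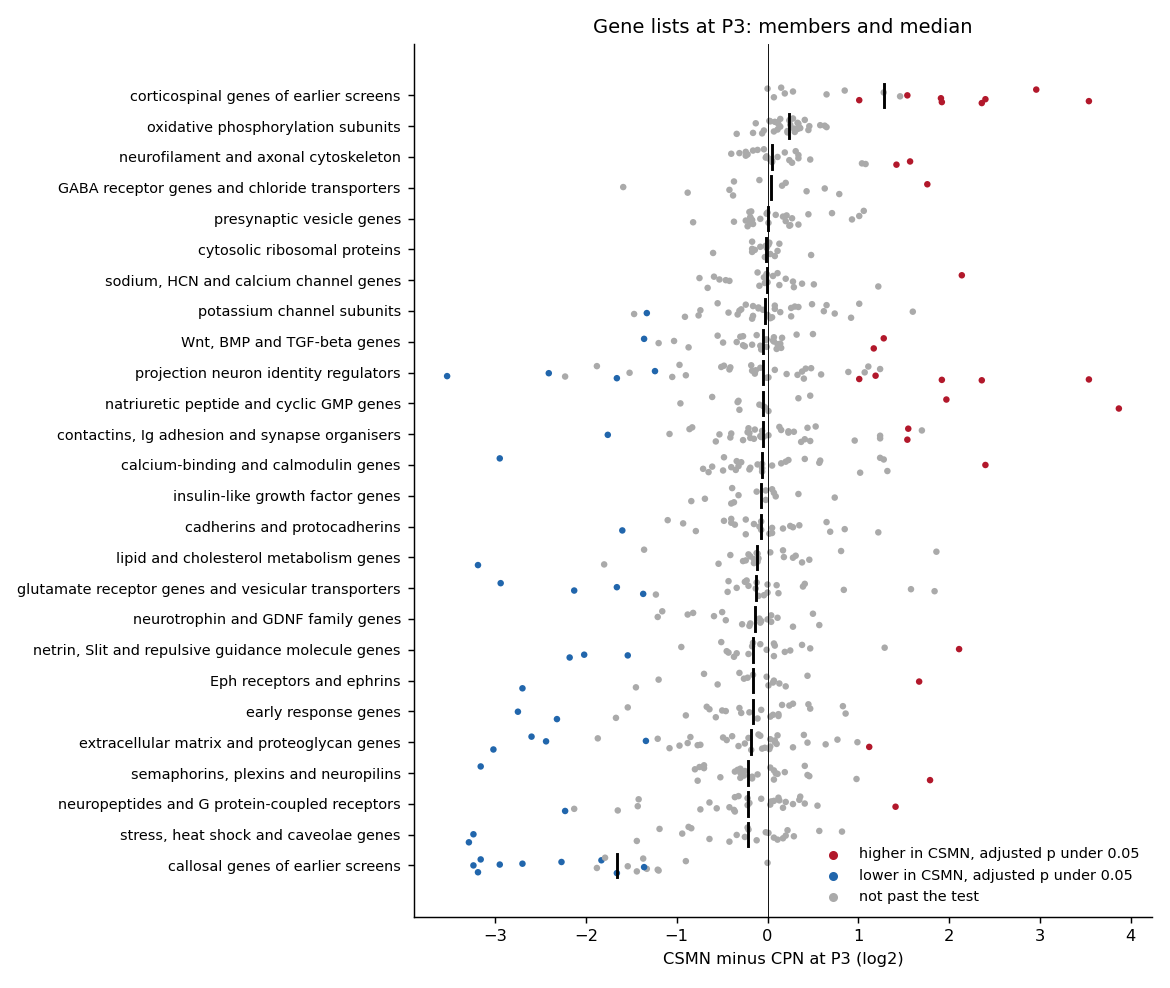
CSMN minus CPN difference at P3 (horizontal axis, log2) of every measured member of 26 gene lists, ordered by median (black bar), with genes past the test in red (higher in CSMN) and blue (lower). The corticospinal list has a median of 1.28 and the callosal list of -1.66, and both were drawn from earlier screens of such neurons. The other medians lie between -0.22 and 0.24.

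Of 25 neurofilament and axonal cytoskeleton genes, 2 were higher in CSMN, none was lower and the median was 0.05. Nefl, the light neurofilament subunit, read 12.13, 12.85 and 12.84 in CSMN, against 11.37 and 11.00 in CPN (1.42 ± 0.25, adjusted p = 0.0101). Tuba4a, an alpha tubulin, read 12.38, 12.31 and 12.56 in CSMN, against 10.81 and 10.88 in CPN (1.57 ± 0.17, adjusted p = 0.000401). The CSMN arrays lay above the CPN arrays throughout for both genes, as for every gene that passed higher. Nefm and Nefh, the medium and heavy subunits, differed by 1.08 (adjusted p = 0.0507) and 1.04 (adjusted p = 0.507). The subunits of oxidative phosphorylation had the highest median outside the corticospinal list, 0.24 over 33 genes, and none passed the test. For 16 of them all CSMN arrays lay above both CPN arrays, against 21.0% of all genes. Among 16 cytosolic ribosomal protein genes the median was -0.01 and none passed.

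Genes of glutamate signalling that passed were all lower in CSMN, 4 of 24 measured, with a median of -0.13 for the list. Slc17a6, which encodes the vesicular glutamate transporter VGLUT2, read 6.02, 5.80 and 6.75 in CSMN, against 8.82 and 9.43 in CPN (-2.94 ± 0.36, adjusted p = 0.00122). Grik1, a kainate receptor subunit, read 4.0, 4.28 and 4.78 in CSMN, against 6.50 and 6.48 in CPN (-2.13 ± 0.34, adjusted p = 0.00611). Even its CPN values were only about at the array medians of 6.5, and 1 of its 2 probe sets passed. Grm2, a presynaptic metabotropic receptor, read 8.31, 8.05 and 8.36 in CSMN, against 9.97 and 9.83 in CPN (-1.66 ± 0.24, adjusted p = 0.00361). Gria4, an AMPA receptor subunit, differed by -1.37 ± 0.25 (adjusted p = 0.0138). Slc17a7, the VGLUT1 gene, differed by -0.12 (adjusted p = 1). Of 12 GABA receptor and chloride transporter genes (median 0.04), Gabrd, the delta subunit of extrasynaptic receptors, was higher in CSMN (1.76 ± 0.35, adjusted p = 0.0272). None of 28 presynaptic vesicle genes passed (median 0.00).

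In each ion channel list 1 gene passed the test, where 0.874% of all genes did. Of 23 sodium, HCN and calcium channel genes (median -0.01), only Cacna2d3, an auxiliary calcium channel subunit, passed. It read 11.29, 11.23 and 11.05 in CSMN, against 8.99 and 9.11 in CPN, and was 4.41-fold higher in CSMN (2.14 ± 0.27, adjusted p = 0.00122). Of 34 potassium channel subunits (median -0.03), only Kcnh1 passed, at 8.01, 8.06 and 8.65 in CSMN, against 9.46 and 9.68 in CPN (-1.33 ± 0.28, adjusted p = 0.0406). Scn2b, a sodium channel beta subunit, differed by 1.22 (adjusted p = 0.0528).

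Secreted signals and receptors were taken list by list. At 0.874% of all genes past the test, a list as short as these can hold none. Of 13 natriuretic peptide and cyclic GMP genes (median -0.05), Npr3 and Pde1a, a calmodulin-dependent phosphodiesterase, were higher in CSMN. Pde1a read 9.11, 8.79 and 8.41 in CSMN, against 6.69 and 6.91 in CPN (1.97 ± 0.34, adjusted p = 0.0106). Npr1, a receptor that makes cyclic GMP, differed by 0.01 (adjusted p = 1). Of 30 Wnt, BMP and TGF-beta genes (median -0.04), Tgfb2 (1.28 ± 0.21, adjusted p = 0.00751) and Wnt5a (1.17 ± 0.19, adjusted p = 0.0062) were higher in CSMN, and Inhba, the activin A subunit, was lower (-1.36 ± 0.30, adjusted p = 0.0479). Wnt5a was higher with 3 of its 4 probe sets, and 1 of the 2 Inhba probe sets was also higher in CSMN. None of 14 insulin-like growth factor genes passed, and Igf1r, the receptor of a factor known to promote corticospinal axon outgrowth, differed by -0.84 (adjusted p = 0.285). None of 20 neurotrophin and GDNF family genes passed, and Bdnf differed by 0.28 (adjusted p = 1). Of 30 neuropeptide and G protein-coupled receptor genes (median -0.21), Adcyap1, the precursor of the peptide PACAP, was higher in CSMN. It read 10.03, 10.03 and 9.49 in CSMN, against 8.35 and 8.53 in CPN (1.41 ± 0.23, adjusted p = 0.00611). Npy, neuropeptide Y, was lower at 9.57, 8.88 and 9.58 in CSMN, against 11.63 and 11.52 in CPN (-2.23 ± 0.46, adjusted p = 0.0326).

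Of 26 early response genes (median -0.16), 2 passed. Fos, an early response transcription factor, read 7.48, 7.53 and 7.69 in CSMN, against 9.77 or more in CPN. It was 5.0-fold lower in CSMN (-2.32 ± 0.46, adjusted p = 0.0272). Nr4a2, an orphan nuclear receptor that also marks subplate neurons, read 7.26, 6.51 and 8.61 in CSMN, against 10.50 and 9.91 in CPN (-2.75 ± 0.56, adjusted p = 0.0308). It differed by -0.01 (adjusted p = 1) once probe sets ending in _x_at, _s_at or _a_at, which can match several transcripts, were left out, and it did not pass without any 1 of CSMN arrays 1 and 2 or of the CPN arrays. Egr1, another early response factor, differed by -0.90 (adjusted p = 0.614). Of 24 stress, heat shock and caveolae genes (median -0.22), Cryab and Cav1 passed, both lower in CSMN. Cryab differed by 0.15 (adjusted p = 1) without probe sets of those endings, and it did not pass without either CPN array or without CSMN array 1 or 2 (-3.43 to -2.98, adjusted p = 0.0507 to 0.175). Of 24 genes of lipid and cholesterol metabolism (median -0.11), only Lpl passed. Apoe, a lipid carrier made mainly by astrocytes, differed by -1.80 (adjusted p = 0.32). Of 29 calcium-binding genes (median -0.06), Pcp4 and Cpne4 passed in opposite directions.

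The P3 differences were then followed to the other stages in the same fit. Of the 159 genes, 136 had the same sign at E18, 153 at P6 and 135 at P14, and 78, 97 and 42 of them passed the test there in that direction. At E18, 5 genes passed in the opposite direction, at P6 none and at P14 2. Over the 3 other stages together, 20 genes passed in the same direction at all 3, 42 at 2, 73 at 1 and 24 at none. The shares of all genes at those stages are not given here, so these counts have no baseline. The stages also share the estimate of spread of each gene, so a pass at several stages is not independent. Bcl11b differed by 1.97 at E18, 2.36 at P3, 4.64 at P6 and 2.84 at P14, and Fezf2 by 1.33, 1.92, 2.59 and 1.86 in the same order. Both regulators passed the test at every stage. Crym differed by 1.38 at E18 (adjusted p = 0.0704) and by 3.54, 6.50 and 2.98 at the later stages. Ermn differed by 6.10 at E18, 5.70 at P3, 5.07 at P6 and 1.74 at P14, where it did not pass (adjusted p = 0.128).

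**Figure D5:**
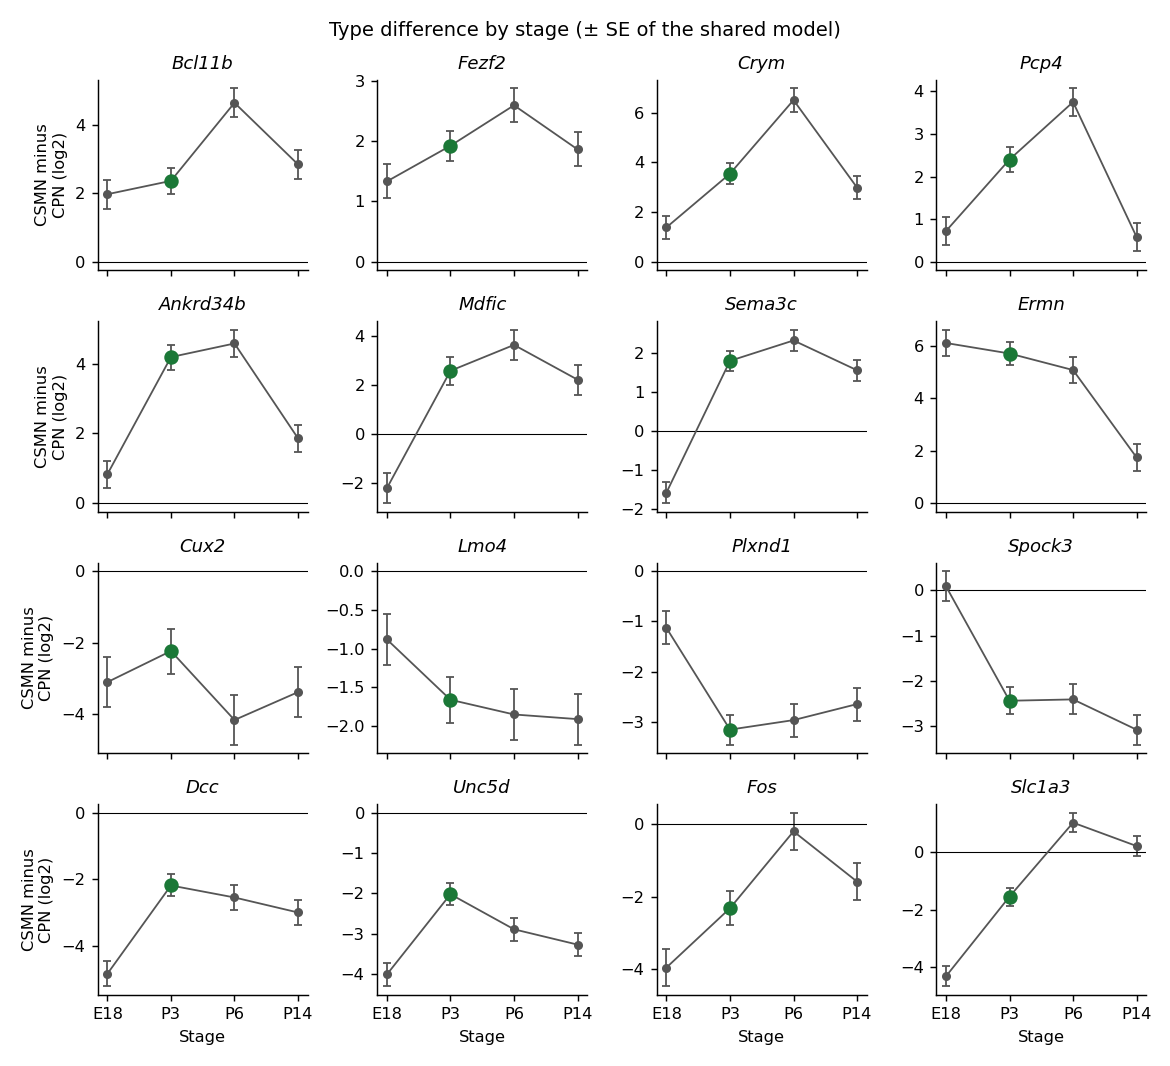
CSMN minus CPN difference (vertical axis, log2, with the SE of the shared model) at E18, P3, P6 and P14 for 16 genes, with P3 in green. Mdfic and Sema3c are below 0 at E18 and above 0 from P3, while Spock3 is near 0 at E18 (0.09) and at -2.44 at P3.

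Whether the type difference itself changed between E18 and P3 was tested as a contrast of the 2 differences. It did so for 676 genes (3.72%), with a more positive difference at P3 for 627 and a more negative one for 49. The split was 602 against 249 with quantile normalization and 671 against 172 with cyclic loess. Of the 6 largest positive shifts, 5 belonged to genes known from progenitors or dividing cells (Fabp7, Neurog2, Eomes, Cks2 and Insm1), and the other to Ccn2, a secreted matrix protein that marks the subplate. Fabp7, a fatty acid binding protein of radial glia, read 5.89 and 4.86 in CSMN, against 13.78 and 13.67 in CPN at E18, and 10.44, 9.83 and 11.73 in CSMN, against 12.46 and 11.94 in CPN at P3. Its difference shifted by 6.81 ± 0.97 (adjusted p = 0.000907). Eomes, the factor of intermediate progenitors, read 5.31 and 5.30 in CSMN, against 11.42 and 10.77 in CPN at E18, while at P3 it lay between 5.0 and 5.19 on all 5 arrays. The shift was 5.91 ± 0.27 (adjusted p = 1.62e-08). Neurog2, a proneural factor, shifted by 5.98 ± 0.24 (adjusted p = 6.26e-09) and lay between 5.09 and 5.32 on all 5 arrays at P3.

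Most markers of progenitors and dividing cells were lower in CSMN at E18. Of 15 radial glia and intermediate progenitor markers, 13 were lower in CSMN at E18, and 10 of the 15 had a more positive difference at P3 than at E18. Of all genes, 3.72% passed the contrast with E18 in either direction. The share of all genes lower in CSMN at E18 is not given here, so the E18 counts have no baseline. The list averaged 7.13 and 7.03 on the CSMN arrays, against 10.78 and 10.76 on the CPN arrays at E18. Of 18 cell cycle markers, 16 were lower in CSMN at E18 and 12 shifted, with averages of 6.73 and 6.75 in CSMN, against 9.10 and 9.26 in CPN. Of 18 astrocyte markers, 12 were lower in CSMN at E18 and 8 shifted. The part that progenitor, dividing cell or astrocyte RNA has in the 676 shifts was not tested. Here too, the number of such cells and the RNA per cell cannot be told apart.

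Some genes of axon guidance shifted as well. Sema3c read 8.08 and 7.76 in CSMN, against 9.26 and 9.73 in CPN at E18, where it passed as lower in CSMN, and was higher in CSMN at P3, P6 and P14. Its difference shifted by 3.36 ± 0.37 (adjusted p = 0.000115). Dcc differed by -4.83 at E18, -2.18 at P3, -2.54 at P6 and -2.99 at P14, a shift of 2.65 ± 0.50 from E18 to P3 (adjusted p = 0.00692). Unc5d followed the same order, with -4.01 at E18 and -2.02 at P3 (shift 1.99 ± 0.40, adjusted p = 0.0106). Plxnd1 moved in the other direction, with -1.13 at E18 and -3.16 at P3 (shift -2.03 ± 0.45, adjusted p = 0.0197). In CPN it read 8.43 and 7.28 at E18 and 9.65 and 9.71 at P3, and CSMN arrays lay between 6.24 and 7.03 at both stages.

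The difference of other genes shifted in either direction between E18 and P3. Ankrd34b read 6.21 and 4.76 in CSMN, against 4.67 and 4.62 in CPN at E18, and its difference shifted by 3.35 ± 0.53 (adjusted p = 0.00202). Mdfic was lower in CSMN at E18, at 6.39 and 6.29, against 8.83 and 8.24 in CPN, and higher at P3 (shift 4.75 ± 0.83, adjusted p = 0.00404). Spock3 read 3.47 and 4.09 in CSMN, against 3.63 and 3.76 in CPN at E18 (shift -2.52 ± 0.44, adjusted p = 0.00427). Il1rapl2, an accessory protein of the interleukin 1 receptor family, differed by 0.55 at E18 and -1.88 at P3 (shift -2.42 ± 0.39, adjusted p = 0.00223). Grm2 shifted by -1.62 ± 0.36 (adjusted p = 0.0215), and Nefl by -1.52 ± 0.37 (adjusted p = 0.0322), its difference being 2.95 at E18 and 1.42 at P3.

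No gene passed the limma test for a change of the type difference between P3 and P6, where the smallest adjusted p was 0.399 and 228 genes had an unadjusted p under 0.05. With array weights 61 genes passed, and without the second CPN array of P6, 11 did. A p that misses the threshold does not show that the differences at P3 and P6 were alike.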

How the data were processed

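Per the labels, RNA of retrogradely labelled, FACS-sorted neurons was extracted with a micro-scale kit, amplified and hybridised to 1 array per collection. The deposited values are log2 expression made by the authors with RMA, per the submitters' processing notes, which name no version. The table held 45101 probe sets, 64 of them array controls. GEO's platform annotation gave 1 gene symbol to 34945 probe sets, several to 932 and none to 9160. The 34945 gave 18193 genes, each represented by its brightest probe set over all arrays, and 34741 probe sets were matched to RefSeq by gene identifier.

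From these values, limma 3.58.1 (R 4.3.3) fitted 9 group means to the 19 arrays, leaving 10 degrees of freedom for the residuals beside a prior of 4.46, with two-sided tests and Benjamini-Hochberg adjustment over all genes. The script was tested on simulated data. Tables and figures used Python 3.11.15, pandas 2.3.3 and matplotlib 3.10.9. The genes, the 26 gene lists and the 13 marker lists (793 genes, 735 measured) were chosen with earlier results of these data known. Genes were named by rule: at P3 the top 15 by size in each direction, Bcl11b, Fezf2, Crym, Ldb2, Lmo4 and Cux2, up to 5 passing and 3 other members per list, and the 6 largest per direction of each stage contrast. Alternatives covered normalization, brightness filter, probe set choice, spread model, array weights, arrays in the fit, a replicate block and each array left out.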

Additional observations from a re-analysis of the deposited data

Results flagged for a closer look

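The type difference was tested between E18 and P3 as a contrast in the limma fit, and these genes passed at an adjusted p under 0.05, each value being the P3 difference minus the E18 difference on the log2 scale. Among genes that passed at P3, more positive differences were found for Mdfic (4.75), Sema3c (3.36), Ankrd34b (3.35), Slc1a3 (2.76), Dcc (2.65), Diaph3 (2.34), Unc5d (1.99), Wnt5a (1.72), Cacna2d3 (1.72), Pcp4 (1.68) and Tgfb2 (1.44). More negative ones were found for Spock3 (-2.52), Il1rapl2 (-2.42), Plxnd1 (-2.03), Grm2 (-1.62) and Nefl (-1.52). Among the largest shifts, Fabp7 (6.81), Neurog2 (5.98), Eomes (5.91), Cks2 (5.50), Insm1 (5.35) and Ccn2 (5.24) did not pass at P3 and were lower in CSMN at E18. Nrsn1 (-2.23), Kcnv1 (-2.05) and Dok5 (-1.96) were higher in CSMN at E18 and did not pass at P3.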

How the results depend on the processing

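Array weights were 0.143 for each CSMN P14 array, 0.781, 5.15 and 0.867 for CSMN P3 arrays 1, 2 and 3, and 3.43 for each CPN P3 array. With these weights the count of 159 genes at P3 became 3176. The count became 271 with cyclic loess normalization, 341 without both CSMN P14 arrays and 819 with only the groups compared. It ran between 29 and 152 with 1 array at P3 left out, lowest without the second CPN array (29) and the first (35), where the remaining CPN array was assumed to vary like the other groups, and at 70 and 85 without the second and the first CSMN array. The share higher in CSMN was 57.2%, and 50.2% with quantile and 45.4% with cyclic loess normalization. The contrast with E18 counted 676 genes, 351 among genes above the median brightness, 1436 without both CSMN P14 arrays, and 283 to 835 with 1 array left out. It fell to 283 and 333 without the second and the first CPN P3 array, 393 without the first CPN E18 array and 410 without the first CSMN P3 array. The share more positive at P3 was 92.8%, against 70.7% with quantile normalization, which moved the median of all genes to -0.13, and 79.6% with cyclic loess. The contrast with P6 counted 0, 61 with array weights and 0 to 11 with 1 array left out. The replicate block gave 216 genes at P3 and 831 against E18. Deviations of same-numbered arrays correlated at 0.20, 0.18, -0.09 and 0.21 at E18, P3, P6 and P14. The labels name no shared litter or day and each stage has only 2 such pairs, so pairing was not settled, and the block was used as an alternative only.

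For the 72 named genes, 1098 of 1273 values under an alternative kept direction and side of the threshold, 159 no longer passed, 6 newly passed and 10 reversed. Cryab was at 0.15 without probe sets ending in _x_at, _s_at or _a_at. The others did not pass in the shared fit: Neurog2 (-0.01 with array weights), Ccn2 (-0.15 with array weights, -0.23 with the replicate block and -0.23 to 0.44 with 1 array left out), Insm1 (-0.15 to 0.29 with 1 array left out) and Nrsn1 (0.12 with the block, -0.21 to 0.12 with 1 array left out). The causes were not tested.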
